A study of Homo sapiens with 12 samples.

Results

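Very long protein-coding genes were followed in HEK293 cells, a transformed human embryonic kidney line, treated with the adenosine analogue cordycepin. The authors describe its triphosphate as a chain terminator in polyadenylation, the addition of the poly(A) tail. They cite work in intact cells where it did not end the making of pre-mRNA in total, although transcription of certain mRNAs and of ribosomal RNAs fell. Genes were taken when GENCODE release 44 annotated them as protein coding with a span of 500 kb or more from start to end and when their mean over the 12 libraries was at least 0.5 RPKM (reads on a gene scaled to its exon length and to the depth of the library). This left 157 genes of the 26058 in the table, of which 22067 reached the same mean and were tested. Of 323 such genes in the annotation, 220 were in the table, 62 of these were below the mean and 1 further gene met both thresholds and was left out by choice. The members were chosen by span and by mean level, so neither is a result.

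Ribosomal RNA-depleted, strand-specific libraries were made from a wild-type line (WT) and from AMPK KO cells, labelled as knockouts of AMPK, a kinase that responds to low energy, and made by CRISPR targeting of its α1 and α2 catalytic subunits. All cells were serum starved for 24 h. Each line was given DMSO, DMSO followed by epidermal growth factor (DMSO+EGF), or 25 µM cordycepin followed by EGF (cordycepin+EGF), with the drug or DMSO added 20 min before 30 min of EGF. Each of the 6 groups had 2 libraries, numbered 2 and 3, which are described as biological replicates with no word on whether they came from separate cultures, so p-values measure only the spread between these libraries. Whether the AMPK KO line was 1 clone was not stated, so a difference between the lines cannot be told apart from one between clones.

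RNA polymerase II has to cross every intron of a gene before the transcript is complete, and in very long genes nearly all of that distance is intron. Several factors, among them the kinases CDK12 and CDK9 and the topoisomerases, are known to matter for transcription over such distances. Many very long genes encode adhesion and synaptic proteins, and some lie in common fragile sites, regions that break when replication is slowed. RPKM counts reads on exons, so RNA made before treatment and RNA made during the 50 min of treatment are measured together.

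The members had a median span of 698 kb, and exons made up a median of 1.70% of it, against 17.1% in the other 12663 protein-coding genes tested. Their longest intron had a median of 175 kb, against 8.76 kb in the others, and their exons together a median of 11.7 kb, against 5.24 kb. The median of their mean levels was 2.69 RPKM, against 6.06 RPKM in the others. ROBO1, a guidance receptor, was highest at a mean of 21.8 RPKM. The members lay on 22 chromosomes, with 6 on X. Just inside the span threshold were AFF2 at 500 kb and ANO5 at 501 kb, and just outside it DIAPH3 and ITPR2 at 498 kb. Just inside the level threshold were SOX6 at 0.515 and RBFOX3 at 0.526 RPKM, and just outside it CACNA1C at 0.499 and GLIS3 at 0.481 RPKM. In 12 members at least 1 group had a mean under 0.5 RPKM, and these passed the level threshold through their other groups.

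The reads recovered from the RPKM values were fewest in WT DMSO replicate 3, at 4008279, and most in WT cordycepin+EGF replicate 2, at 26442611. The former library stood apart, with 1170 genes without a read against 3 to 127 in the other libraries. The members held 0.741% to 1.05% of the reads. Of 10 markers of HEK293 cells, NEFL, INA, VIM, KRT8, KRT18 and CDH2 were at 7.998 RPKM or more in every library, whereas PAX2, LHX1, NEFM and NES were under 1 RPKM. Of 8 genes of other cell types, PTPRC reached at most 0.0610 RPKM, ACTN2 had a mean of 1.51 RPKM and the other 6 were not listed. PRKAA1, the AMPK α1 subunit, was at 21.9 and 15.4 RPKM in WT DMSO and at 7.62 and 7.37 RPKM in AMPK KO DMSO (log2 difference -1.26 ± 0.17, SE, limma adjusted p = 0.0228). PRKAA2, the α2 subunit, was at 12.1 and 7.97 RPKM in WT DMSO and at 5.59 and 6.08 RPKM in AMPK KO DMSO, and that difference did not pass (limma adjusted p = 0.112). Transcripts of both were still present in the AMPK KO line, and a level of RNA does not measure whether a protein is made.

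The level of the members was first compared between libraries. For each gene the log2 level was set against its own mean over the 12 libraries, and the median over the 157 genes was taken relative to that of all genes tested. This value was 0.21 and 0.0070 in WT DMSO replicates 2 and 3. It was 0.13 and 0.074 in WT DMSO+EGF and -0.071 and -0.22 in WT cordycepin+EGF. In WT, both cordycepin libraries were below all 4 others. In the AMPK KO line the value was -0.030 and -0.13 with DMSO, 0.013 and -0.00062 with DMSO+EGF, and -0.061 and 0.018 with cordycepin+EGF, so the groups given EGF overlapped. The SD between replicates, pooled over the 6 groups, was 0.084.

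**Figure D1:**
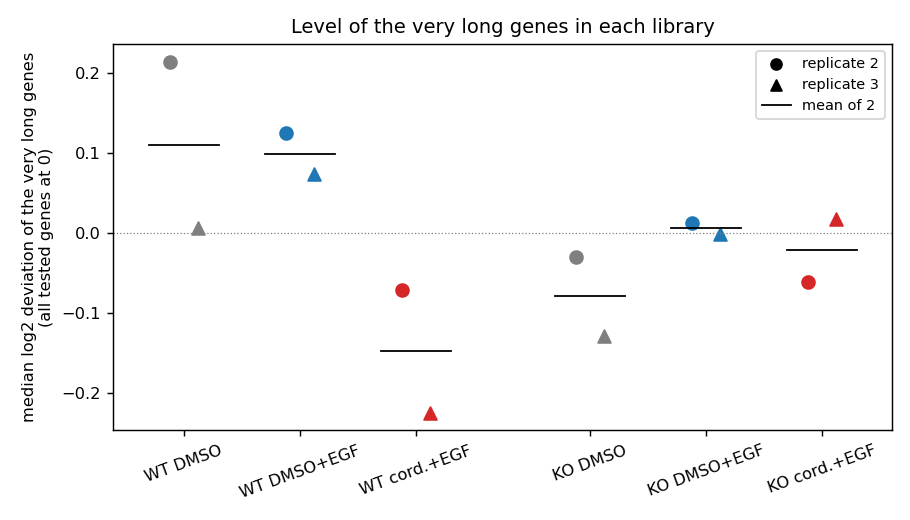
Median log2 deviation of the 157 very long genes from their own means in each library, with all tested genes set to 0. Circles are replicate 2, triangles replicate 3 and bars the mean of the 2. Both WT cordycepin+EGF libraries, at -0.071 and -0.22, sit below the other WT libraries.

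The effect of cordycepin was then tested in each line as cordycepin+EGF against DMSO+EGF. In WT, the median log2 change of the members was -0.17, and 118 of 157 members had a change below 0. The median was 0.033 over all genes tested, which include genes that are not protein coding, and -0.0055 over the protein-coding genes tested. At an unadjusted p under 0.05, 27 members (17.2%) were lower, where 7.13% of all genes tested were lower, and 2 members (1.27%) were higher, where 8.86% of all genes were. Of the 813 protein-coding genes of 200 to 500 kb, 20.7% were lower and 1.97% higher. None passed an adjusted p of 0.05 (limma, smallest adjusted p among members 0.262), and 1 of 22067 genes did, which is 0.00453% and was lower. Fitted to the recovered reads with voom, the same comparison put 16 members (of 157) past an adjusted p of 0.05, where 3.68% of all genes tested passed in that fit. The libraries of the 2 groups did not overlap in 91 members that were lower, where 27.8% of all genes were, and in 10 that were higher, where 25.7% were.

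The median log2 change of the members moved with single libraries. It was -0.17 with all libraries and -0.095 without WT cordycepin+EGF replicate 3. Of the DMSO+EGF libraries of that line, leaving out replicate 2 gave a median of -0.13 and leaving out replicate 3 a median of -0.21. Counts of called members are not given for these fits, which leave 1 library in a group.

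The largest differences in WT were in CNTNAP2, which encodes a neurexin-family adhesion protein and is the longest member at 2305 kb (chromosome 7, 146116002 to 148420998, GRCh38, plus strand). CNTNAP2 was at 3.25 and 3.71 RPKM in WT DMSO+EGF and at 1.07 and 0.921 RPKM in WT cordycepin+EGF (log2 change -1.38 ± 0.40, SE, limma adjusted p = 0.267). In WT DMSO, CNTNAP2 was at 4.26 RPKM in replicate 2 and 1.62 RPKM in replicate 3. The 2 replicates of 1 untreated group thus spanned most of the range between the treatments.

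LRRTM4, a postsynaptic adhesion protein gene, was at 4.49 and 3.33 RPKM in WT DMSO+EGF and at 1.81 and 1.03 RPKM in WT cordycepin+EGF (log2 change -1.18 ± 0.44, SE, limma adjusted p = 0.279). Its WT DMSO replicates were at 5.82 and 1.73 RPKM. DOCK1, an activator of the GTPase Rac, was at 9.07 and 8.36 RPKM with DMSO+EGF and at 4.11 and 3.98 RPKM with cordycepin+EGF (log2 change -0.98 ± 0.36, SE, limma adjusted p = 0.279). Its WT DMSO replicates were at 9.38 and 3.84 RPKM. In each of these genes, WT DMSO replicate 3 lay near the cordycepin+EGF libraries and replicate 2 at or above the DMSO+EGF libraries.

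CACNA2D3, an auxiliary calcium channel subunit gene, had a log2 change of -0.83 ± 0.26 (SE, limma adjusted p = 0.267). PRKD1, which encodes protein kinase D1, had -0.76 ± 0.20 (SE, limma adjusted p = 0.262). PALM2AKAP2, an anchor for protein kinase A, had -0.76 ± 0.27 (SE, limma adjusted p = 0.275), and its exons are shared with shorter annotated genes, so its counts are uncertain. The 2 members that were higher were TBC1D5 and MTUS2. TBC1D5, a regulator of endosomal traffic, was at 7.07 and 6.59 RPKM with DMSO+EGF and 8.58 and 8.38 RPKM with cordycepin+EGF (log2 change 0.34 ± 0.14, SE, limma adjusted p = 0.293). MTUS2, named after its values were seen because its mean in the compared libraries was under 1 RPKM, had a log2 change of 0.50 ± 0.16 (SE, limma adjusted p = 0.267). Over the DMSO and DMSO+EGF libraries its mean was 0.293 RPKM in WT and 0.520 RPKM in AMPK KO. Over the cordycepin+EGF libraries of both lines it was 0.787 RPKM. MTUS2 thus passed the level threshold of 0.5 RPKM only through the cordycepin+EGF libraries, so the choice of members favoured its rise.

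**Figure D2:**
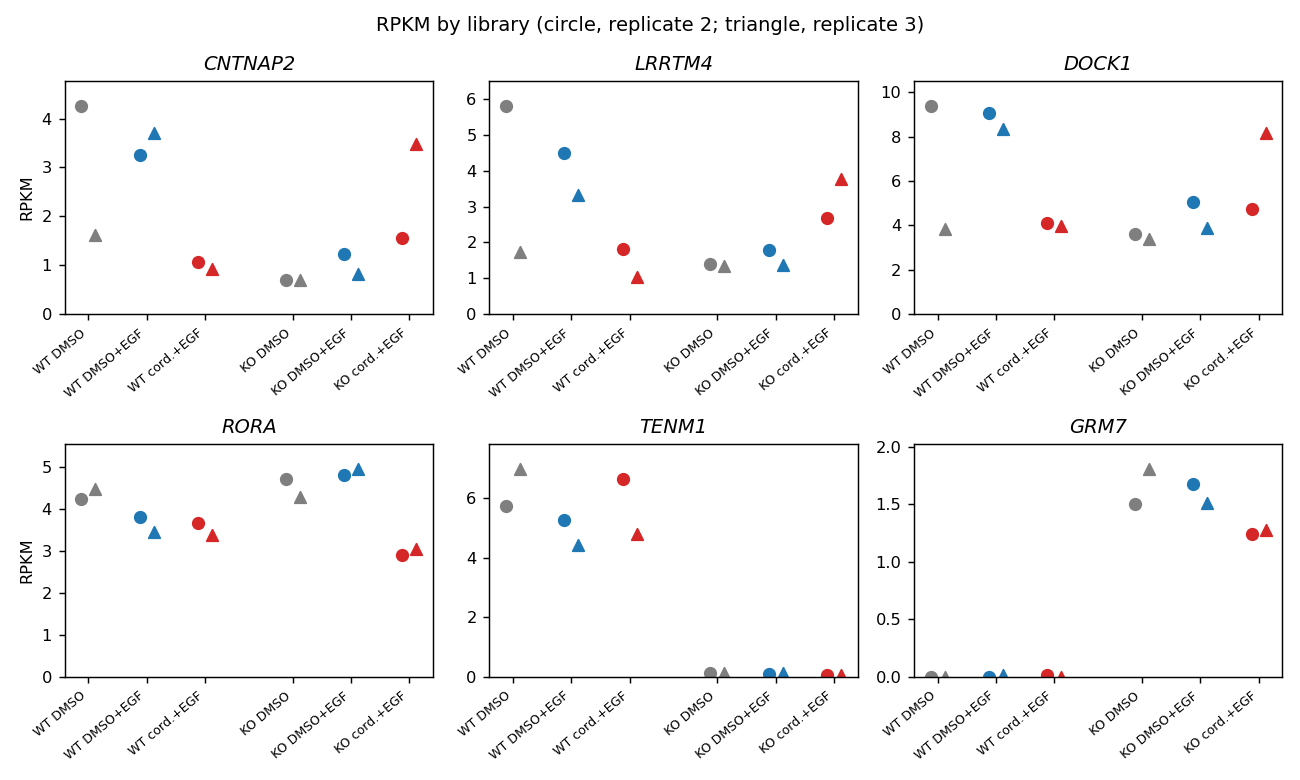
RPKM of 6 very long genes in each of the 12 libraries (circles, replicate 2; triangles, replicate 3; every y axis starts at 0). CNTNAP2, LRRTM4 and DOCK1 differed between the WT DMSO replicates as well as between WT DMSO+EGF and WT cordycepin+EGF, whereas TENM1 and GRM7 separated the lines in every library.

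The 27 members that were lower in WT at an unadjusted p under 0.05 were then read in the libraries that this difference did not use. All 27 were higher in WT DMSO replicate 2 than in replicate 3, by a median log2 difference of 0.58, and so were 89 of the 130 other members, by a median of 0.14. In AMPK KO DMSO 23 of the 27 were higher in replicate 2, by a median of 0.099 against 0.10 in the other members. In AMPK KO DMSO+EGF 22 were, by a median of 0.10 against -0.00019 in the other members. In AMPK KO cordycepin+EGF none of the 27 was higher in replicate 2 than in replicate 3, with a median difference of -0.29, and 49 of the other members were, with a median of -0.054. With cordycepin in the AMPK KO line, all 27 had a log2 change above 0, with a median of 0.29. Of all 157 members, 85 had a change above 0 there, with a median of 0.033. The AMPK KO cordycepin+EGF libraries enter both this change and the replicate difference of that group. The source of the differences between replicates was not tested.

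In AMPK KO cells the median log2 change of the members with cordycepin was 0.033. It was 0.056 over all genes tested and -0.031 over the protein-coding genes tested. The members' median was -0.0028 with RPKM as deposited and -0.012 with median-ratio scaling. At an unadjusted p under 0.05, 14 members (8.92%) were lower, where 10.1% of all genes tested were, and 7 (4.46%) were higher, where 11.7% were. Of the protein-coding genes of 200 to 500 kb, 11.7% were lower and 5.29% higher. None passed an adjusted p of 0.05 (limma, smallest adjusted p among members 0.0700), where 0.385% of all genes were higher and 0.0861% lower, and 5 members passed with voom, where 5.81% of all genes did. Of the 7 higher members, MTUS2 and RBFOX3 passed the level threshold only through the cordycepin+EGF libraries, so the choice of members favoured their rise. The counts at an unadjusted p under 0.05 fell when either AMPK KO DMSO+EGF library or AMPK KO cordycepin+EGF replicate 2 was left out. The shares of all genes called in those fits are not given here.

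RORA, a nuclear receptor gene of 741 kb, was at 4.80 and 4.95 RPKM in AMPK KO DMSO+EGF and at 2.90 and 3.03 RPKM with cordycepin+EGF (log2 change -0.59 ± 0.13, SE, limma adjusted p = 0.0700). DIAPH2, a formin that builds actin filaments, was at 6.72 and 6.97 RPKM and at 4.23 and 4.73 RPKM (log2 change -0.52 ± 0.14, SE, limma adjusted p = 0.0922). The replicates of each group lay close together in both genes. In WT, RORA was at 3.80 and 3.45 RPKM with DMSO+EGF and 3.65 and 3.37 RPKM with cordycepin+EGF, where the groups overlapped.

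FBXL17, an F-box protein of ubiquitin ligases, had a log2 change of -0.42 ± 0.17 in AMPK KO cells, and PARD3B, a polarity protein, had -0.41 ± 0.16. LPP, a focal adhesion protein, had -0.40 ± 0.14, and TBC1D5 had -0.40 ± 0.14. Higher at an unadjusted p under 0.05 were CNTNAP2, with 0.95 ± 0.40, and ANO5, a membrane protein of the anoctamin family, with 0.65 ± 0.27. CDH4, a cadherin, had 0.61 ± 0.27, and DENND1A, an exchange factor for the GTPase Rab35, had 0.61 ± 0.21. CNTNAP2 was at 1.55 RPKM in AMPK KO cordycepin+EGF replicate 2 and 3.48 RPKM in replicate 3, against 1.23 and 0.822 RPKM with DMSO+EGF. Errors here are SE, and none of these genes passed an adjusted p of 0.05 in limma.

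**Figure D3:**
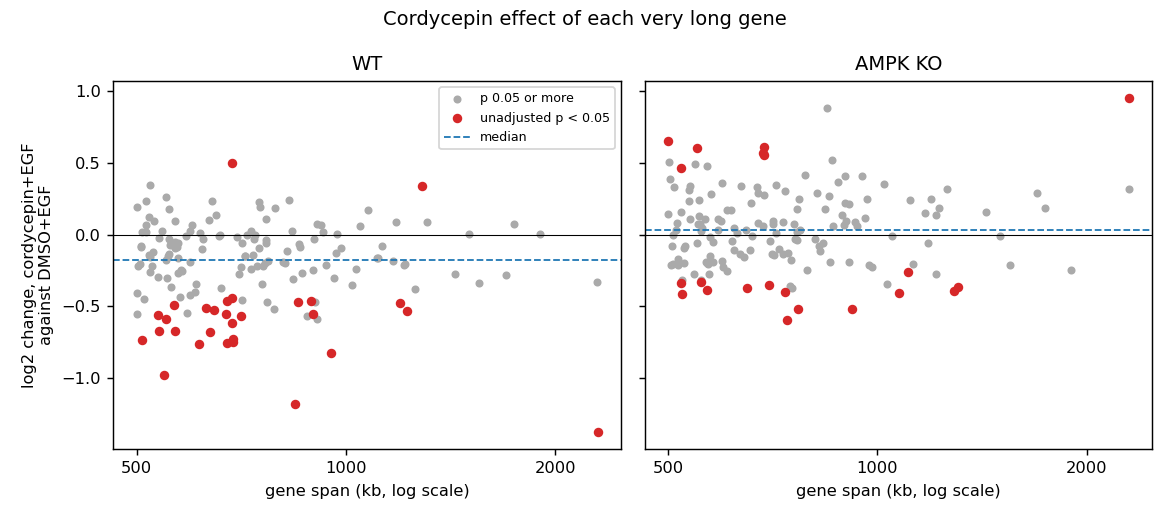
Log2 change with cordycepin (cordycepin+EGF against DMSO+EGF) of each very long gene against its span in kb on a log axis, in WT (left) and AMPK KO (right). Red points have an unadjusted p under 0.05, and the dashed line is the median of the 157 genes, -0.17 in WT and 0.033 in AMPK KO.

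The difference of the cordycepin effects between the lines was tested as an interaction (AMPK KO minus WT). Its median was 0.21 over the members, 0.019 over all genes tested and -0.032 over the protein-coding genes tested. At an unadjusted p under 0.05 it was above 0 in 24 members (15.3%), where 10.9% of all genes were, and below 0 in 11 (7.01%), where 10.5% were. None of the members or of the other genes passed an adjusted p of 0.05 in limma, and 22 members passed with voom, where 9.13% of all genes did. The number past an adjusted p of 0.05 was 14 with 1 WT DMSO library left out, where 9.06% of all genes passed without replicate 2 and 9.09% without replicate 3. These libraries are in neither effect and enter only through the shared estimate of the spread. Without WT cordycepin+EGF replicate 3 the median of the members was 0.070.

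ADK encodes adenosine kinase, the enzyme that adds the first phosphate to adenosine and to cordycepin, and with a span of 559 kb it was itself a member. ADK was at 12.8 and 14.3 RPKM in WT DMSO+EGF and 10.5 and 14.7 RPKM in WT cordycepin+EGF, so the groups overlapped (log2 change -0.071 ± 0.14, SE, limma adjusted p = 0.829). In AMPK KO cells ADK was at 13.6 and 12.6 RPKM with DMSO+EGF and 9.50 and 10.6 RPKM with cordycepin+EGF, a difference that did not pass (log2 change -0.32 ± 0.14, SE, limma adjusted p = 0.239).

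Across all protein-coding genes the WT difference with cordycepin followed gene span, and the very long genes were not its end point. The median log2 change was 0.12 in genes under 10 kb, 0.046 at 10 to 50 kb, -0.051 at 50 to 100 kb, -0.14 at 100 to 200 kb and -0.20 at 200 to 500 kb, against -0.17 in the members. Over 12820 protein-coding genes, which share the same libraries, Pearson's r between the change and log10 span was -0.27 in WT and -0.080 in AMPK KO. For EGF it was -0.25 in WT and 0.26 in AMPK KO, and for AMPK KO against WT it was -0.28 in DMSO, 0.0083 in DMSO+EGF and 0.21 in cordycepin+EGF. Comparisons that share a group share its libraries, so these values are not independent. Within the members, Spearman's rho between change and span was -0.021 in WT and 0.020 in AMPK KO.

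A dependence on span was also seen between replicates of some groups. Replicate 3 minus replicate 2 of WT DMSO had a median of 0.16 in genes under 10 kb and -0.20 in the members, with r of -0.25. For WT cordycepin+EGF these medians were 0.11 and -0.17 (r of -0.26), and for AMPK KO DMSO 0.096 and -0.10 (r of -0.26). For WT DMSO+EGF and AMPK KO DMSO+EGF the members' medians were -0.066 and -0.019 (r of 0.038 and -0.062), and for AMPK KO cordycepin+EGF it was 0.077 (r of 0.12). The difference with cordycepin in WT is one between means of 2 libraries, and these are differences between single libraries. Replicate 3 had fewer reads than replicate 2 in all 3 WT groups, at 4008279 against 16523877 with DMSO, 16664212 against 25037183 with DMSO+EGF and 15428792 against 26442611 with cordycepin+EGF. In AMPK KO it had more with DMSO, at 16923285 against 15284534, and with cordycepin+EGF, at 17930243 against 12675612. With DMSO+EGF the AMPK KO replicates had 14199996 and 14143814 reads. The part of depth in these differences was not tested.

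**Figure D4:**
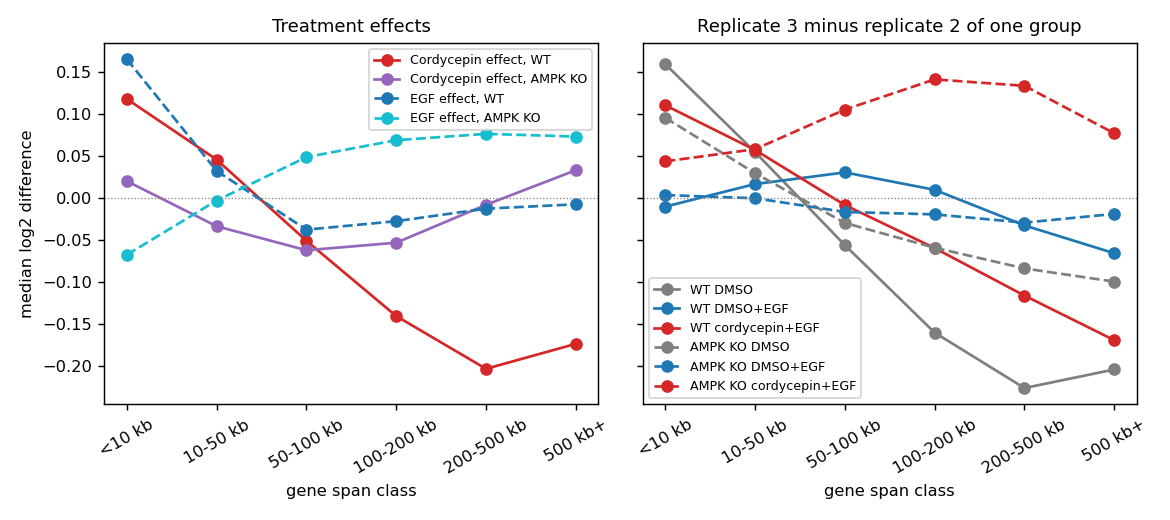
Median log2 difference of protein-coding genes by span class for the cordycepin and EGF effects in each line (left) and for replicate 3 minus replicate 2 within each group (right). The WT cordycepin effect ran from 0.12 under 10 kb to -0.17 at 500 kb or more, and the 2 WT DMSO replicates ran from 0.16 to -0.20.

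The members were grouped by the known roles of their products. Over all genes tested, 7.13% were lower and 8.86% higher in WT with cordycepin, and 10.1% and 11.7% in AMPK KO. In WT with cordycepin, 5 of 22 adhesion and guidance genes were lower at an unadjusted p under 0.05 and none was higher, with a median log2 change of -0.23. Of 29 scaffold, cytoskeleton and polarity genes 5 were lower (median -0.19), of 21 transcription, chromatin and RNA-binding genes 4 (median -0.25), and of 13 channel, transporter and membrane traffic genes 2 (median -0.24). Of 16 kinase, phosphodiesterase and other signalling genes 2 were lower and 1 higher (median -0.086), and of 15 enzyme and metabolism genes 1 was lower (median -0.097). The 41 members in none of these lists had 8 lower and 1 higher (median -0.15). LRRTM4 and PRKD1, described above by their known products, were among these 41, so the adhesion and signalling counts leave them out. In AMPK KO cells the adhesion and guidance genes had a median of 0.23, with 2 higher and none lower, and the signalling genes a median of -0.13, with 4 lower and none higher. No member of any list passed an adjusted p of 0.05 in either line.

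Of the members, 16 were on a list of genes in common fragile sites, among them CNTNAP2, LRP1B, PDE4D and FHIT. Their median log2 change with cordycepin was -0.16 in WT, with 2 lower and none higher at an unadjusted p under 0.05, and -0.018 in AMPK KO cells, with 2 lower and 1 higher. These few counts stand against the same shares of all genes, 7.13% lower in WT and 10.1% lower in AMPK KO. LRP1B, a lipoprotein receptor family gene of 1900 kb, was at 2.30 and 1.96 RPKM in WT DMSO+EGF and 2.13 and 2.02 RPKM in WT cordycepin+EGF. FHIT, a nucleotide hydrolase gene of 1504 kb, was at 2.43 and 1.90 RPKM and at 2.12 and 2.06 RPKM. The groups overlapped in both.

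The other longest members likewise showed no separation in WT. PTPRD, a receptor tyrosine phosphatase gene of 2299 kb, was at 7.26 and 6.10 RPKM with DMSO+EGF and 6.18 and 4.08 RPKM with cordycepin+EGF. ROBO2, a guidance receptor gene of 1743 kb, was at 2.39 and 2.27 RPKM and at 2.72 and 2.11 RPKM. NRXN3, a presynaptic neurexin gene of 1698 kb, was at 5.04 and 4.02 RPKM and at 4.51 and 2.71 RPKM. These groups overlapped in every case. Among the most highly expressed members, UTRN, which links actin to the membrane, was at 15.3 and 14.7 RPKM and at 14.4 and 13.6 RPKM, and GSE1, a chromatin complex component, was at 20.2 and 20.9 RPKM and at 18.2 and 19.4 RPKM. In these last genes the groups did not overlap, and neither passed an unadjusted p of 0.05.

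Of 50 genes for transcription elongation and long-gene transcription, 49 were tested. With cordycepin, 6 were lower and 1 higher at an unadjusted p under 0.05 in WT (median log2 change -0.060), and 14 were lower and 1 higher in AMPK KO cells (median -0.21), where 7.13% and 8.86% of all genes were lower and higher in WT and 10.1% and 11.7% in AMPK KO. None passed an adjusted p of 0.05 with cordycepin in limma. Between the lines in DMSO+EGF, CCNT1, the cyclin partner of CDK9, was higher in AMPK KO (log2 difference 0.64 ± 0.12, SE, limma adjusted p = 0.0475). RPRD1A, which binds the tail of RNA polymerase II, was also higher (0.64 ± 0.12, SE, limma adjusted p = 0.0416). In that comparison 0.929% of all genes were higher at an adjusted p under 0.05, against 2 of the 49.

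Genes lying wholly within a member were used as a second readout, since they lie at the same locus and are shorter. Of 326 such genes 266 were tested, 105 on the strand of the host and 161 on the opposite strand, in 108 hosts. With cordycepin in WT their median log2 change was -0.17 on the same strand and -0.21 on the opposite strand. At an unadjusted p under 0.05, 7 were lower and none higher on the same strand and 6 lower and 1 higher on the opposite strand, where 7.13% of all genes were lower and 8.86% higher. In AMPK KO cells the medians were 0.27 and 0.32. On the same strand 3 were higher and 4 lower, and on the opposite strand 13 were higher and none lower, where 11.7% of all genes were higher and 10.1% lower. On the same strand in WT the median was -0.19 within 100 kb of the host's start, -0.17 at 100 to 300 kb and -0.18 beyond. On the opposite strand it was 0.018, -0.33 and -0.17 over the same distances. No nested gene passed an adjusted p of 0.05 with cordycepin in limma. Where a nested gene and its host overlap on opposite strands, their reads can be told apart only if counting used strand, which was not stated. On the same strand, reads from unspliced host RNA over a nested exon cannot be told apart even then. The nested genes are therefore not a readout independent of their hosts.

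The nested genes also differed between replicates of 1 group. Their median deviation on the same strand was 0.39 and -0.10 in the WT DMSO replicates, 0.36 and 0.013 with WT DMSO+EGF, 0.17 and -0.24 with WT cordycepin+EGF and 0.21 and -0.14 with AMPK KO cordycepin+EGF. It was -0.14 and -0.22 with AMPK KO DMSO and -0.17 and -0.13 with AMPK KO DMSO+EGF, where the replicates lay closer together. In each of the first 4 groups replicate 2 was the higher, and the gap was larger than the difference between WT DMSO+EGF and WT cordycepin+EGF within a replicate number.

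**Figure D5:**
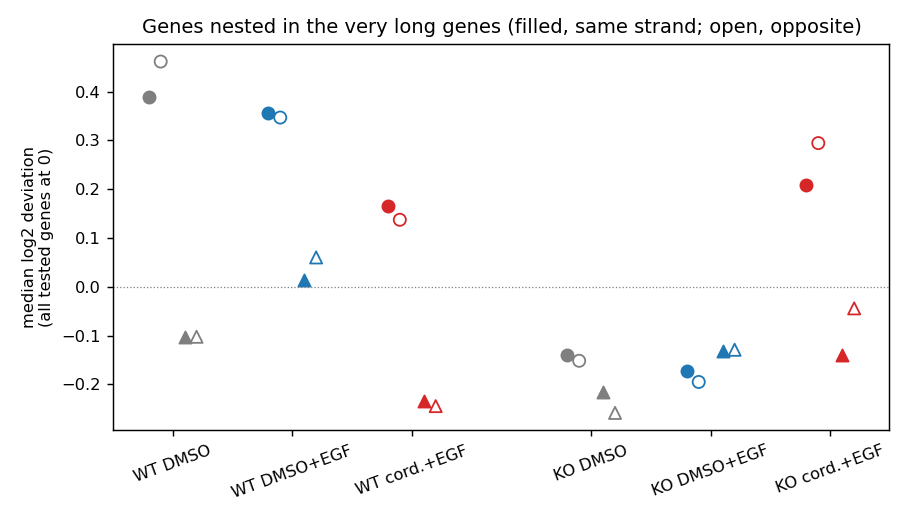
Median log2 deviation of genes nested in the very long genes in each library (filled, same strand as the host; open, opposite strand; circles, replicate 2; triangles, replicate 3), with all tested genes set to 0. Replicates of WT DMSO lie at 0.39 and -0.10 on the same strand, further apart than the WT treatments within a replicate number.

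EGF was tested as DMSO+EGF against DMSO. In WT the median log2 change of the members was -0.0077, against 0.016 over all genes tested, and it was 0.013 with RPKM as deposited. At an unadjusted p under 0.05, 1 member (0.637%) was higher, where 6.18% of all genes were, and 3 (1.91%) were lower, where 3.53% were. Without WT DMSO replicate 2 the median was 0.10, and without replicate 3 it was -0.13. The direction in WT thus depended on which DMSO library was used. IQCJ-SCHIP1, a readthrough gene whose exons are shared with SCHIP1 and whose counts are uncertain, was at 0.873 and 0.633 RPKM with DMSO and 1.41 and 1.74 RPKM with EGF (log2 change 0.71 ± 0.26, SE, limma adjusted p = 0.497).

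DIAPH2 was at 6.65 and 8.07 RPKM with DMSO and 5.27 and 5.89 RPKM with EGF in WT (log2 change -0.39 ± 0.14, SE, limma adjusted p = 0.487). TBC1D5 had a log2 change of -0.32 ± 0.14 and UTRN of -0.23 ± 0.10. In AMPK KO cells the median was 0.073, against 0.0063 over all genes, and 122 of 157 members were above 0. No member was past an unadjusted p of 0.05 in either direction, where 1.03% of all genes were higher and 1.40% lower. Without AMPK KO DMSO replicate 3 that median was 0.016. No member passed an adjusted p of 0.05 with EGF in either line, with limma or with voom, where 0.0227% of all genes were higher in WT and 0.0136% in AMPK KO by limma.

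The lines differed most in a few members. In DMSO, 3 members passed an adjusted p of 0.05, 1 higher and 2 lower in AMPK KO, where 0.281% of all genes were higher and 0.159% lower. In DMSO+EGF 8 passed, 6 higher and 2 lower, where 0.929% and 0.807% of all genes were. In cordycepin+EGF 2 passed, 1 higher and 1 lower, where 0.0453% and 0.0725% were. With a block for the replicate number within each line, the 8 in DMSO+EGF became 2 and the 2 in cordycepin+EGF became 1. TENM1 passed the level threshold of 0.5 RPKM only through the WT libraries and GRM7 only through the AMPK KO libraries, so each had to differ between the lines. Both are in these counts, except that GRM7 left the one with the block in cordycepin+EGF (limma adjusted p = 0.0683). PLCL1, 1 of the 6 higher in DMSO+EGF, had a mean of 0.445 RPKM in WT and 1.09 RPKM in AMPK KO. It passed the threshold only through the AMPK KO libraries, which favoured its call.

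TENM1 encodes teneurin-1, an adhesion protein, on X (124375903 to 125204312, GRCh38, minus strand). It was at 5.74 and 6.99 RPKM in WT DMSO, 5.28 and 4.42 RPKM in WT DMSO+EGF and 6.63 and 4.78 RPKM in WT cordycepin+EGF. In the AMPK KO line its highest value was 0.139 RPKM. The groups were separated under every treatment, with a log2 difference in DMSO of -3.48 ± 0.20 (SE, limma adjusted p = 0.00028). Fitted on only the 4 libraries compared, that limma adjusted p was 0.172, and it was 0.0329 in DMSO+EGF and 0.0506 in cordycepin+EGF.

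GRM7, a metabotropic glutamate receptor gene on chromosome 3 (6770001 to 7741533, plus strand), had the opposite pattern. It was at 1.503 and 1.81 RPKM in AMPK KO DMSO, 1.67 and 1.51 RPKM in AMPK KO DMSO+EGF and 1.24 and 1.27 RPKM in AMPK KO cordycepin+EGF. No read was recovered in 4 of the 6 WT libraries, and the others had 2 and 4 reads. Set against an assumed 3 reads over both WT DMSO libraries, its level in AMPK KO DMSO was at least 95.5-fold higher, a bound that was not tested. On the scale with 0.5 RPKM added, the fitted log2 difference in DMSO was 2.09 ± 0.16 (SE, limma adjusted p = 0.0015). Its antisense gene GRM7-AS1 was listed at 0 in every WT library and at 0.428 to 1.91 RPKM in the AMPK KO libraries, and their reads may not be separable. Fitted on only the 4 libraries compared, GRM7 had an adjusted p of 0.416 in DMSO, 0.0329 in DMSO+EGF and 0.213 in cordycepin+EGF (limma).

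TENM3, teneurin-3, was at 15.6 and 14.2 RPKM in WT DMSO and 7.65 and 7.51 RPKM in AMPK KO DMSO (log2 difference -0.95 ± 0.13, SE, limma adjusted p = 0.0276). With DMSO+EGF it was at 13.2 and 14.8 RPKM and 7.69 and 7.08 RPKM (-0.86 ± 0.13, SE, limma adjusted p = 0.0246). With cordycepin+EGF the difference was -0.65 ± 0.13 and did not pass (limma adjusted p = 0.154). With the block its limma adjusted p was 0.0694 in DMSO and 0.0543 in DMSO+EGF. On only the 4 libraries compared that value was 0.416 in DMSO and 0.0336 in DMSO+EGF. In DMSO the call was lost on leaving out either AMPK KO DMSO library, WT DMSO replicate 2 or any of the 4 DMSO+EGF libraries, with limma adjusted p up to 0.216. In DMSO+EGF it was lost on leaving out any of the 4 libraries compared or either AMPK KO DMSO library, with limma adjusted p up to 0.248.

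Higher in AMPK KO with DMSO+EGF was PLCL1, a phospholipase C-like protein without catalytic activity. It was at 0.335 and 0.427 RPKM in WT and 1.26 in both AMPK KO libraries (log2 difference 1.00 ± 0.16, SE, limma adjusted p = 0.0292). PLCL1 passed the level threshold only through the AMPK KO libraries. PARD3B was at 2.31 and 2.27 RPKM and 4.45 and 4.80 RPKM (0.89 ± 0.16, SE, limma adjusted p = 0.0416). Also past the threshold were SPAG16, an axoneme protein gene (0.88 ± 0.17), TBC1D5 (0.83 ± 0.14) and DOCK3, a Rac activator (0.60 ± 0.10). Fitted on only the 4 libraries compared, these 5 kept their calls, with limma adjusted p from 0.0329 for TBC1D5 to 0.0390 for PLCL1. None of these 5 kept its call with the block, where limma adjusted p were 0.0596 for PLCL1, 0.0718 for PARD3B, 0.0599 for SPAG16, 0.0593 for TBC1D5 and 0.0678 for DOCK3. Each also lost it on leaving out any of the 4 libraries compared, with limma adjusted p of up to 0.248 for PLCL1 and 0.289 for PARD3B. Of the 12 libraries left out singly, 8 ended the call for PLCL1, TBC1D5 and DOCK3 and 10 for PARD3B and SPAG16.

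Over the members, the median difference between the lines (AMPK KO minus WT) was -0.19 in DMSO, -0.11 in DMSO+EGF and 0.15 in cordycepin+EGF, against 0.0093, -0.0047 and 0.014 over all genes. At an unadjusted p under 0.05, 29 members were lower and 9 higher in DMSO, where 9.29% and 12% of all genes were. With DMSO+EGF 27 were lower and 16 higher, where 11.4% and 11.1% were, and with cordycepin+EGF 5 were lower and 22 higher, where 6.64% and 7.10% were. All of these counts include TENM1, GRM7 and PLCL1. Each passed the level threshold only through the line where it was higher, which favoured its call. In DMSO the median was -0.059 without WT DMSO replicate 2 and -0.29 without replicate 3. In cordycepin+EGF it was 0.040 without WT cordycepin+EGF replicate 3.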

How the data were processed

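RNA was sequenced from 12 libraries, and the authors deposited RPKM per gene, made from reads aligned to GRCh38.p13 and counted with Rsubread. The strand setting of counting was not given in the sources used here. An earlier replicate 1 was discarded by the authors. RPKM were divided by upper-quartile factors and tested as log2(RPKM + 0.5) with limma 3.58.1 (trend, Benjamini-Hochberg) in R 4.3.3, with all 12 libraries in 1 fit without a block. Fold changes on this scale are understated for low genes. Whole reads were recovered for 98.7% of genes (tolerance 0.05 reads) and gave depth. Genes were placed with GENCODE 44, which matched 26029 of 26058 genes. The fit was tested on simulated data, with pass criteria that were set after a first simulated result was known. Deviations of same-numbered libraries correlated in WT (r of 0.14, 0.28 and 0.31) and not in AMPK KO (-0.12 to 0.031). Across the lines r was -0.081 to 0.32, largest between WT cordycepin+EGF and AMPK KO DMSO. No source names a shared culture or day, and the correlations did not all pass 0.1, so the block was fitted within each line as an alternative. Named genes were those past an adjusted p of 0.05, then those past an unadjusted p of 0.05 with groups that did not overlap and a mean of at least 1 RPKM, up to 6 per direction for cordycepin and 3 otherwise, with the 5 longest, the 3 highest, ADK, genes at the thresholds and examples from the fixed lists. The members, lists and tests were chosen with earlier results of these data known.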

Additional observations from a re-analysis of the deposited data

How the results depend on the processing

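The median change of the members relative to all genes moved by less than the replicate SD under the other pseudocounts, filters, scalings and fits, except that the difference between lines was 0.30 with a span of at least 800 kb. Members past an adjusted p of 0.05 depended on the model. The share of all genes passing with voom is given above for cordycepin in each line and for the difference between lines. For the other counts below the share of all genes in the same fit is not given. Those counts show how calls moved with the model and are not a result about very long genes. With voom on recovered reads they were 16 for cordycepin in WT, 5 in AMPK KO, 22 for the difference between lines, and 26, 37 and 7 for AMPK KO against WT in DMSO, DMSO+EGF and cordycepin+EGF. With array weights they were 2 for cordycepin in AMPK KO, 11 for the difference and 44 for the lines in DMSO+EGF. With only the groups compared they were 6 for the difference and 0, 21 and 0 for the lines. A replicate block within each cell line gave 2 for the lines in DMSO+EGF and 1 in cordycepin+EGF, and moved no other count of adjusted calls by over 1.5 times. A crossed block, with the numbers of AMPK KO DMSO+EGF swapped and chosen after seeing the data, gave 1 in cordycepin+EGF. A mean of at least 1 RPKM gave 1 in cordycepin+EGF, and a span of at least 800 kb gave 5 in DMSO+EGF. The opposite-strand nested genes had 0.39 in AMPK KO with a pseudocount of 0.1. The causes were not tested.

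Leaving out 1 library at a time, adjusted calls ranged from 0 to 2 for cordycepin in AMPK KO, 0 to 14 for the difference between lines, and 2 to 33, 2 to 26 and 1 to 3 for the lines in DMSO, DMSO+EGF and cordycepin+EGF. The members' median relative to all genes ranged from 0.071 to 0.24 for the difference, -0.11 to 0.077 for EGF in WT, -0.28 to -0.082 for the lines in DMSO and 0.041 to 0.22 in cordycepin+EGF. Nested genes ranged from -0.41 to -0.041 (same strand) and -0.41 to -0.085 (opposite) in WT, and from 0.036 to 0.37 and 0.061 to 0.43 in AMPK KO. The members' level in WT DMSO ranged from 0.029 to 0.22. A library left out leaves a lone sample that is assumed to vary like the other groups. With 2 libraries a group and 4008279 reads in WT DMSO replicate 3, small changes could not be resolved.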
